A study of Mus musculus with 12 samples.

Results

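Transcripts of renin, of a marker of the cells that make it, and of the macula densa signals that act on those cells were followed across 12 mouse kidney cortex libraries. The genes were Ren1 (renin), Akr1b7 (an aldo-keto reductase found in renin cells), Nos1 (neuronal nitric oxide synthase), Ptgs2 (cyclooxygenase 2) and Ptges (microsomal prostaglandin E synthase). They were chosen by symbol for their known roles, with earlier results of these data known. All 5 were among the 24452 symbols of the count table and all 5 passed the filter on low counts, which left 14618 genes for testing. Renin is the protease that cuts angiotensinogen and so sets the rate of the renin-angiotensin system, and the juxtaglomerular cells of the afferent arteriole are its main source. The macula densa, a plaque of tubule cells at the end of the thick ascending limb, senses salt. It acts on the juxtaglomerular cells through prostaglandin E2, made by cyclooxygenase and prostaglandin E synthase, and through nitric oxide. Angiotensin II restrains renin and macula densa Ptgs2, so both are known to rise when angiotensin-converting enzyme is inhibited.

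The 12 libraries came from C57BL/6 mice, all labelled adult and male, and formed 4 groups of 3. Glomerulonephritis (GN) was induced by intraperitoneal horse spleen apoferritin, 10 mg given 5 times a week for 6 weeks, with lipopolysaccharide as adjuvant, 100 micrograms given 3 times a week. Control mice received saline instead. Kidneys were taken at week 9, and pieces of cortex of 20 to 30 mg were used. Within each arm, 1 group drank water (Control_water, GN_water) and 1 received captopril, an inhibitor of angiotensin-converting enzyme, at a dose not in the labels (Control_captopril, GN_captopril). Whether a library came from 1 mouse or a pool is not in the labels, so the p-values measure the spread between libraries, which may in part be technical. In bulk tissue, fewer cells of a type and less RNA per cell cannot be told apart.

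Sex-linked transcripts went against the label male in 6 of the 12 libraries. Y-linked transcripts were present in the groups labelled Control_water and GN_captopril (4 genes, 121 to 144 CPM, counts per M counts, where M is mega), and Xist in those labelled Control_captopril and GN_water (181 to 375 CPM). Each of the 4 comparisons within a treatment or within a disease arm, GN_water against Control_water included, thus also sets Y-linked transcripts against Xist, and in these the labelled difference and the sex-marker difference cannot be told apart. Renin also went against what is known of captopril in the controls, as given below. Whether treatment or sex labels of some groups are wrong was not tested, groups are named as labelled, and the direction of every comparison rests on those labels. Library totals ran from 14.2 to 22.8 M counts. Counts of 10 adrenal cortex genes were 7077 in Control_captopril replicate 3, 1695 in GN_captopril replicate 3, 365 in GN_captopril replicate 2 and 176 in Control_captopril replicate 1, and 20 to 70 in the other libraries. Macrophage markers summed to 107 to 150 CPM in the 6 control libraries and to 423 to 1230 CPM in the 6 GN libraries, with all 7 of 7 markers higher in GN averaged over both treatments. Markers of the thick ascending limb, the segment that carries the macula densa, summed to 4070 to 8860 CPM over 6 genes. The sums were 7110 to 8860 CPM in Control_captopril, 6670 to 7900 in GN_water, 4910 to 6410 in Control_water and 4070 to 4890 in GN_captopril. Umod, Egf and Slc12a1 were their largest parts, while Cldn16 had 12.4 to 21.6 CPM.

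Ren1 lies on chromosome 1 at chr1:133350674-133360320 of the mm10 assembly and Akr1b7 on chromosome 6 at chr6:34412362-34423137. Nos1 spans chr5:117866839-117958840, Ptgs2 chr1:150100031-150108234 and Ptges chr2:30889471-30931020, as RefSeq places them. The 250 bases upstream of the RefSeq starts of both renin cell genes are shown because these are the genes of the juxtaglomerular cell itself (RefSeq, GRCm38.p6, plus strand, chr1:133350424-133350673 for Ren1 and chr6:34412112-34412361 for Akr1b7). Capitals mark the motifs found in a search of both strands for a core promoter element (TATAAA), the core of the cyclic AMP response element (TGACG), a nuclear receptor core motif (AGGTCA) and a site of PBX and HOX factors (TGATTNAT).
Ren1: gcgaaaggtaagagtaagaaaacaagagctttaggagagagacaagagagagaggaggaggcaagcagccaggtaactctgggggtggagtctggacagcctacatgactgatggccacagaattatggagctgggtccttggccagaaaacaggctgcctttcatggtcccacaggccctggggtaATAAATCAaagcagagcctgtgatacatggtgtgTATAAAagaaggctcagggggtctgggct
Akr1b7: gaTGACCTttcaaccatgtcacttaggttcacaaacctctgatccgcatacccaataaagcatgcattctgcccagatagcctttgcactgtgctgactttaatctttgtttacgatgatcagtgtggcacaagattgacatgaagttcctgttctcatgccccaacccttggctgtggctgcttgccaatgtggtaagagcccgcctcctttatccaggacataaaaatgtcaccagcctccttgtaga
The Ren1 window held TATAAA from -29 to -24 and, on the minus strand, TGATTNAT from -63 to -56, where the printed strand reads ATAAATCA. In the Akr1b7 window the search found AGGTCA on the minus strand from -248 to -243, and neither of the motifs found for Ren1. Of 32851 mouse promoter windows of this length, 12.4% held TATAAA, 2.82% TGATTNAT, 14% AGGTCA and 17.8% TGACG. Of the macula densa genes, the Nos1 window held TGACG on the minus strand from -130 to -126, and the windows of Ptgs2 and Ptges held none of the 4 motifs. The Ptges window, at chr2:30903298-30903547, lay within the gene span given above and not beyond its end. These matches describe letters only. RefSeq gave a promoter window for all 5 genes.

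Ren1 had the widest range of group means of the 5 genes, and their order did not follow the captopril labels. The libraries labelled Control_water had 1142, 1083 and 1793 CPM. Those labelled Control_captopril had 63.4, 78.2 and 82.8 CPM. In GN_water Ren1 was at 23.3, 30.2 and 20.8 CPM, and in GN_captopril at 499, 690.5 and 438 CPM. No pair of groups overlapped, and the groups ranked Control_water, GN_captopril, Control_captopril and GN_water from highest to lowest. Group means were 1339 ± 394, 543 ± 132, 74.8 ± 10.1 and 24.7 ± 4.90 CPM in that order (SD, n = 3 each). At its highest, Ren1 took 0.169% of all counts of a Control_water library, and at its lowest 0.00225% of a GN_water library.

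All 6 differences between pairs of groups passed the test for Ren1 (edgeR quasi-likelihood test, adjusted by Benjamini-Hochberg, threshold 0.05). Within the water label Ren1 was 54-fold lower in GN than in control (log2 fold change -5.75 ± 0.25, SE, adjusted p = 2.24e-09), and within the captopril label 7.26-fold higher in GN than in control (2.86 ± 0.22, adjusted p = 4.45e-07). In the control arm it was 17.9-fold lower with the captopril label than with the water label (-4.16 ± 0.23, adjusted p = 2.37e-08), and in the GN arm 21.9-fold higher (4.45 ± 0.24, adjusted p = 1.46e-08). The direction of the captopril difference was thus opposite in the 2 arms, and their difference was 8.61 ± 0.33 on the log2 scale (adjusted p = 2.40e-10). That contrast too sets the groups with Y-linked transcripts against those with Xist. Averaged over both arms, captopril gave 0.14 ± 0.15 (95% interval -0.18 to 0.47, adjusted p = 0.598).

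GN and control libraries that share sex-linked transcripts can be compared in 2 ways, and Ren1 was lower in GN in both, although the drink differs in each. It was 3.01-fold lower in GN_water than in Control_captopril (log2 fold change -1.59 ± 0.22, adjusted p = 0.00016) and 2.47-fold lower in GN_captopril than in Control_water (-1.30 ± 0.20, adjusted p = 0.00178). The average of GN over both treatments was -1.45 ± 0.15 (adjusted p = 1.45e-05), which is the mean of opposite differences, -5.75 with water and 2.86 with captopril. Ren1 kept its calls in these comparisons without any 1 library. Ren2, a renin gene that C57BL/6 mice lack, received 0.261 to 0.702% of the counts of Ren1 and Ren2 together. Counts are estimated and shared reads can be split between genes, so this share does not give the number of reads shared.

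**Figure D1:**
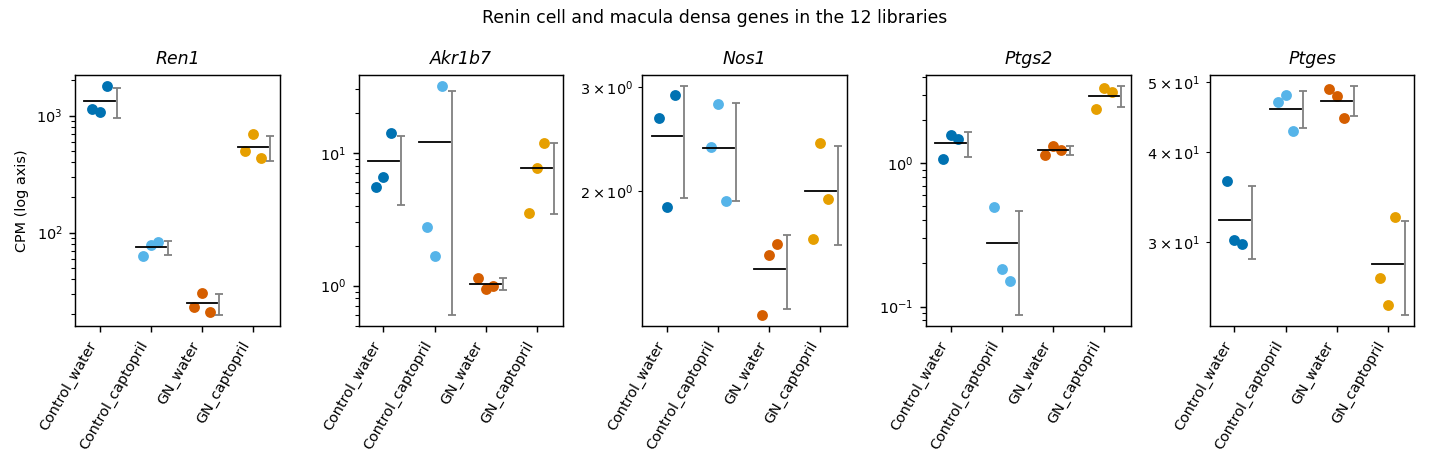
Levels of Ren1, Akr1b7, Nos1, Ptgs2 and Ptges in the 12 libraries, in CPM on a log axis, with 1 point per library, the group mean as a line and the SD as a bar beside it. Ren1 separates all 4 groups, from 1083 to 1793 CPM in Control_water to 20.8 to 30.2 CPM in GN_water, and Ptges is between 24.6 and 36.4 CPM where Ren1 is high and between 42.8 and 48.9 CPM where it is low.

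Akr1b7, an enzyme of the juxtaglomerular cell that also detoxifies aldehydes in the adrenal cortex, was lowest in GN_water, as Ren1 was. The values were 5.54, 6.55 and 14.1 CPM in Control_water, and 2.78, 1.66 and 31.8 CPM in Control_captopril. GN_water had 1.15, 0.945 and 0.988 CPM and GN_captopril 3.52, 7.62 and 11.9 CPM. All 3 GN_water libraries lay below all 9 others, while the other 3 groups overlapped one another. Akr1b7 was 8.37-fold lower in GN_water than in Control_water (log2 fold change -3.07 ± 1.02, edgeR adjusted p = 0.023) and 7.42-fold higher in GN_captopril than in GN_water (2.89 ± 1.04, adjusted p = 0.0363). The first of these calls was lost without Control_water replicate 3 (adjusted p = 0.0794) or any of GN_water replicates 1, 2 and 3 (0.0522, 0.0624 and 0.0559), and the second without any of GN_water replicates 1, 2 and 3 (0.0753, 0.091 and 0.0812) or GN_captopril replicate 2 or 3 (0.0702 and 0.102). Adrenal cortex counts in GN_captopril replicates 1, 2 and 3 were 20, 365 and 1695, in the order of their Akr1b7 values, against 31 to 70 in GN_water. With GN_captopril replicate 3 and Control_captopril replicate 3 both left out, as the libraries highest in adrenal counts, the second difference was 2.45 (adjusted p = 0.00146). In that run the first, GN_water minus Control_water, was -3.07 ± 0.42 (edgeR adjusted p = 9.27e-05). Neither library left out belongs to the groups of this first difference.

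The high Akr1b7 value of Control_captopril replicate 3 fell in the library with 7077 adrenal cortex counts. With it, Control_captopril differed from Control_water by 0.47 ± 0.79 on the log2 scale (adjusted p = 0.704). Without it the difference was -1.96 (adjusted p = 0.012), the direction of Ren1. GN_captopril minus Control_captopril likewise went from -0.64 (adjusted p = 0.558) to 1.78 (adjusted p = 0.0166), and the difference between the captopril differences of the GN and control arms from 2.42 (adjusted p = 0.143) to 4.85 (adjusted p = 0.000128). GN_water minus Control_captopril was -3.54 (95% interval -5.69 to -1.38, adjusted p = 0.0169), and -1.11 without that library (adjusted p = 0.187) and -3.52 without GN_water replicate 2 (adjusted p = 0.0516). GN averaged over both treatments gave -1.86 ± 0.66 (adjusted p = 0.0465), a call that held without Control_captopril replicate 1 or 2 or GN_captopril replicate 3 and was lost without each of the other 9 libraries (-1.98 to -0.65, adjusted p = 0.0528 to 0.197). Without both libraries with the most adrenal counts, Control_captopril minus Control_water was -1.95 (adjusted p = 0.00572).

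Relative to Ren1, Akr1b7 was at its lowest in Control_water. Per 1000 Ren1 counts there were 4.85, 6.05 and 7.87 Akr1b7 counts in Control_water and 49.2, 31.3 and 47.6 in GN_water. Control_captopril had 43.9, 21.2 and 384, and GN_captopril 7.05, 11 and 27.2. The ratio in GN_water lay above that in Control_water in every library, by 2.77 on the log2 scale (exact permutation test, two-sided p = 0.1, the smallest that 3 against 3 libraries allow), and adrenal counts in these 6 libraries were 24 to 70. GN_captopril lay 1.07 above Control_water (exact permutation p = 0.2).

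**Figure D2:**
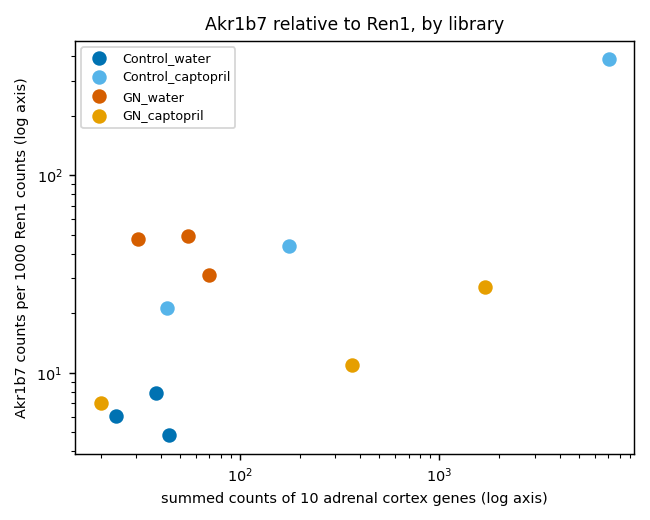
Akr1b7 counts per 1000 Ren1 counts against the summed counts of 10 adrenal cortex genes, both on log axes, with 1 point per library coloured by group. The 3 GN_water libraries sit at 31.3 to 49.2 with 31 to 70 adrenal counts, and Control_captopril replicate 3 sits apart at 384 with 7077.

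Nos1, which makes nitric oxide in the macula densa, varied little. Control_water had 2.65, 1.88 and 2.90 CPM and Control_captopril 2.38, 2.81 and 1.92 CPM. GN_water had 1.24, 1.56 and 1.63 CPM, below every library of the other 3 groups, and GN_captopril 1.66, 2.41 and 1.94 CPM. That gap was narrow, 1.63 CPM in GN_water replicate 3 (33 counts) against 1.66 CPM in GN_captopril replicate 1 (25 counts). The order of these libraries rests on their TMM scaling factors, 1.083 and 0.967, and is reversed with library totals alone. Nos1 was 1.68-fold lower in GN_water than in Control_water (log2 fold change -0.75 ± 0.23, edgeR adjusted p = 0.0157) and 1.61-fold lower than in Control_captopril (-0.68 ± 0.23, adjusted p = 0.0367). Averaged over both treatments it was lower in GN by -0.49 ± 0.16 (adjusted p = 0.0348). In GN_captopril it differed from Control_water by -0.30 ± 0.23 (95% interval -0.80 to 0.20, adjusted p = 0.438), and from GN_water by 0.45 ± 0.24 (adjusted p = 0.142).

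These Nos1 calls were near the threshold. The difference from Control_water was lost without Control_water replicate 1 or 3 (adjusted p = 0.0524 and 0.0606), and the difference from Control_captopril without Control_captopril replicate 1 or 2 or GN_water replicate 1 or 2 (0.0859, 0.137, 0.0886 and 0.0523). The GN average was lost without Control_water replicate 1 or 3, Control_captopril replicate 1 or 2, GN_water replicate 1 or GN_captopril replicate 1 or 3 (adjusted p = 0.0598 to 0.0864), with DESeq2 (0.0532) and with the pair of libraries highest in adrenal counts left out (0.0523). DESeq2 also lost the difference from Control_captopril (0.053). Scaling to library totals lost all 3 calls (0.061 from Control_water, 0.0667 from Control_captopril and 0.0739 in the GN average).

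Ptgs2, the inducible cyclooxygenase of the macula densa, was high where the captopril label met GN and low where it met control. Control_water had 1.07, 1.58 and 1.48 CPM, Control_captopril 0.493, 0.184 and 0.152 CPM, GN_water 1.15, 1.32 and 1.24 CPM and GN_captopril 2.39, 3.35 and 3.16 CPM. The 3 GN_captopril libraries lay above all others and the 3 Control_captopril libraries below all others, while the 2 groups on water overlapped. Counts behind these values were low, 3 to 61 per library. Ptgs2 was 4.76-fold lower in Control_captopril than in Control_water (log2 fold change -2.25 ± 0.37, edgeR adjusted p = 0.000383) and 2.40-fold higher in GN_captopril than in GN_water (1.26 ± 0.27, adjusted p = 0.00221). The difference between these captopril differences was 3.52 ± 0.46 (adjusted p = 2.87e-05), in the direction of Ren1 and in the same contrast of sex-linked transcripts.

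Unlike Ren1, Ptgs2 was higher in GN averaged over both treatments (3.06-fold, log2 fold change 1.61 ± 0.23, edgeR adjusted p = 0.000163). This average joins -0.14 ± 0.29 with water (95% interval -0.77 to 0.49, edgeR adjusted p = 0.709) and 3.37 ± 0.34 with captopril (10.4-fold, adjusted p = 5.58e-06). Split by treatment label in this way, the captopril-labelled groups carry it, though each of these differences also sets Y-linked transcripts against Xist. The average is equally the mean of the differences that follow, between groups that share sex-linked transcripts. Ptgs2 was 4.31-fold higher in GN_water than in Control_captopril (2.11 ± 0.36, adjusted p = 0.000728) and 2.17-fold higher in GN_captopril than in Control_water (1.12 ± 0.28, adjusted p = 0.0207). The latter call was lost without Control_water replicate 1, GN_captopril replicate 2 or GN_captopril replicate 3 (adjusted p = 0.0761, 0.0738 and 0.0596). It was also lost when the pair of libraries highest in adrenal counts was left out (1.08, adjusted p = 0.0573). Macrophages can also express Ptgs2, and their markers were higher in every GN library (423 to 1230 against 107 to 150 CPM). Their part in the result was not tested. The macrophage marker sums were 857 to 1230 CPM in GN_water and 423 to 844 CPM in GN_captopril.

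Ptges, the synthase that turns the cyclooxygenase product into prostaglandin E2, ran opposite to Ren1 in its main differences. Control_water had 36.4, 30.3 and 29.8 CPM and GN_captopril 26.8, 24.6 and 32.6 CPM. Control_captopril had 46.9, 48.0 and 42.8 CPM and GN_water 48.9, 47.8 and 44.5 CPM. The 6 libraries of the last 2 groups lay above the other 6, and within each of these pairs the groups overlapped. Ptges was higher in GN_water than in Control_water (1.46-fold, log2 fold change 0.54 ± 0.10, edgeR adjusted p = 0.000515) and in Control_captopril than in Control_water (1.42-fold, 0.51 ± 0.10, adjusted p = 0.00163), and lower in GN_captopril than in GN_water (-0.76 ± 0.10, adjusted p = 6.19e-05) and than in Control_captopril (-0.72 ± 0.10, adjusted p = 0.000103).

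Between groups that share sex-linked transcripts Ptges gave 0.04 ± 0.10 (GN_water minus Control_captopril, 95% interval -0.17 to 0.25, adjusted p = 0.81) and -0.21 ± 0.10 (GN_captopril minus Control_water, adjusted p = 0.209). Averaged over both treatments GN gave -0.09 ± 0.07 (adjusted p = 0.386). The difference between the captopril differences was -1.26 ± 0.14 (adjusted p = 8.12e-06). Markers of the inner medulla and urothelium, where Ptges is also made, differed by comparison. Of 4 tested, 2 were higher and 0 lower in GN_water against Control_water (edgeR, median 1.03). For GN_captopril 0 were higher and 1 lower, both against GN_water (median -1.08) and against Control_captopril (median 0.68). In Control_captopril against Control_water 1 of 4 tested was higher and 1 lower (median -0.67), with Aqp4 at 84.1 against 14.5 CPM and Slc14a2 at 14.7 against 44.9 CPM. Their sums were 82.8 to 130 CPM in Control_captopril, 64.1 to 161 in GN_water, 42.1 to 90.9 in Control_water and 31.9 to 50.7 in GN_captopril. Of 6 thick ascending limb markers 2 were higher and 0 lower in Control_captopril against Control_water (edgeR, median 0.19). There Umod and Kcnj1 were above and Slc12a1 was at 922 against 989 CPM. In GN_water against Control_water 4 of these markers were higher and 1 lower (median 0.53). For GN_captopril 0 were higher and 5 lower against GN_water (median -0.64), and 0 higher and 3 lower against Control_captopril (median -0.44). Their part in the Ptges differences was not tested.

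Per kilobase of exon the members differed widely in level. In Control_water Ren1 stood at 807 CPM per kilobase, Ptges at 8.19, Akr1b7 at 6.82, Ptgs2 at 0.301 and Nos1 at 0.221. In GN_water the order at the top changed: Ren1 was at 14.9 and Ptges at 11.98 CPM per kilobase, with Akr1b7 at 0.802, Ptgs2 at 0.269 and Nos1 at 0.132.

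Counted over comparisons, GN_water against Control_water called 4 of the 5 genes (1 higher, 3 lower), where 51.2% of all genes tested were called. GN_captopril against GN_water called 4 (3 higher, 1 lower; background 45.1%), and Control_captopril against Control_water 3 (1 higher, 2 lower; background 32.4%). In GN_captopril against Control_captopril 3 were called (2 higher, 1 lower) at a background of 39.8%. GN_water against Control_captopril called 4 (1 higher, 3 lower) at 30.1%, or 3 with DESeq2, and GN_captopril against Control_water called 2 (1 higher, 1 lower) at 12.1%. The GN average called 4 (1 higher, 3 lower) at 30.9%, or 3 with DESeq2, and the difference between captopril differences called 3 (2 higher, 1 lower) at 50.7%. Captopril averaged over both arms called 0 of 5 with edgeR (1 at an unadjusted p under 0.05) and 0 with DESeq2, against 6.51% of all genes. With so many genes called, these counts are not a result about the 5 genes. The sizes were: by size of log2 fold change Ren1 ranked 46 of 14618 genes in GN_water against Control_water, and Nos1 2975.

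**Figure D3:**
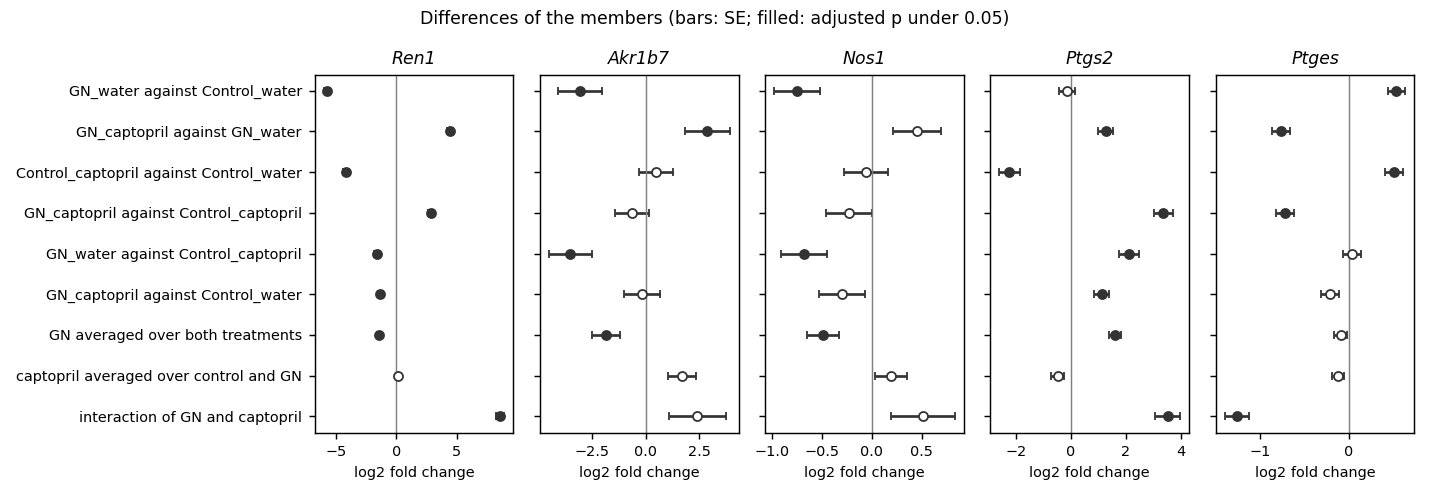
Log2 fold changes of the 5 genes in the 9 comparisons, with the SE as a bar and filled points where the edgeR adjusted p is under 0.05; each panel has its own horizontal scale. The interaction of GN and captopril is 8.61 for Ren1, 3.52 for Ptgs2 and -1.26 for Ptges, and the captopril average has no filled point.

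The counts of gene groups that follow stand beside 30.9% of all genes called in the GN average and 50.7% in the difference between captopril differences, and a share near these is no result about a group. A GN average can join opposite differences with water and with captopril, as for Ren1, Cbr1, Abcc4, Kcnj1 and Mme. It then does not give the direction within either label. Other genes of the renin cell and afferent arteriole had mostly small GN averages. Of 15 tested besides the members, 4 were higher and 1 lower (30.9% of all genes called), with a median log2 fold change of 0.08 against -0.01 over all genes tested. The gene that was lower was Gja5, which encodes connexin 40, the gap junction protein through which renin cells are coupled. It had 9.21, 9.89 and 11.2 CPM in Control_water, 4.57, 4.56 and 3.79 in Control_captopril, 4.03, 3.99 and 4.99 in GN_water, and 5.18, 6.20 and 5.45 in GN_captopril. Control_water lay above all others, and the GN average was -0.42 ± 0.10 (edgeR adjusted p = 0.00575). The contractile genes Acta2 (smooth muscle actin, 0.37 ± 0.06) and Rgs5 (a pericyte regulator of G proteins, 0.17 ± 0.06) and the LIM protein gene Crip1 (0.82 ± 0.17) were higher, as was Rbpj, the effector of Notch signalling (0.20 ± 0.04). The Rgs5 call (adjusted p = 0.0482) was lost with DESeq2 (0.063), RLE scaling (0.06) and no filter (0.0593), and without each library other than Control_water replicate 3, Control_captopril replicate 2 and GN_captopril replicate 1 (0.0532 to 0.137).

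In the difference between captopril differences 1 of these 15 was higher, Gja5 (1.60 ± 0.20, edgeR adjusted p = 1.65e-05), and 8 were lower, with a median of -0.55 against -0.07 over all genes, of which 50.7% were called. Acta2 gave -0.96 ± 0.13, Rgs5 -0.75 ± 0.12 and the smooth muscle gene Smtn -0.62 ± 0.11. Summed mesangial and smooth muscle markers were 298 to 327 CPM in GN_water and 174 to 242 CPM in the other groups.

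Genes that carry signals to renin transcription and release gave 4 higher and 9 lower of 34 in the GN average (median -0.08; 30.9% of all genes called). Among them were Gnai2, an inhibitory G protein subunit (0.29 ± 0.04), Adcy6, an adenylyl cyclase (-0.32 ± 0.05), Casr, the calcium-sensing receptor (-0.59 ± 0.11), and Creb1, which binds cyclic AMP response elements (-0.20 ± 0.05; edgeR adjusted p at most 0.0136 for these). The Creb1 call was lost with library totals (-0.13, adjusted p = 0.0983). Adrb1, the main receptor for sympathetic nerves on renin cells, gave -0.09 ± 0.19 (adjusted p = 0.757). In the difference between captopril differences 8 were higher and 15 lower (median -0.19; 50.7% of all genes called). Pde3b, a phosphodiesterase that breaks down cyclic AMP, gave -1.67 ± 0.15, Adcy6 -0.96 ± 0.09, Rara, a retinoic acid receptor, 1.29 ± 0.13 and Rxra, its partner, 0.79 ± 0.08.

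Macula densa and thick ascending limb genes gave 2 higher and 7 lower of 18 tested besides the members in the GN average (median -0.13; 30.9% of all genes called). Pappa2, a protease of macula densa cells that frees insulin-like growth factor, had 4.23, 2.49 and 4.32 CPM in Control_water and 0.673, 0.506 and 0.758 CPM in Control_captopril. GN_water had 3.66, 5.43 and 4.15 CPM and GN_captopril 5.78, 6.25 and 4.66 CPM. Control_captopril lay below all other libraries. The GN average was 1.68 ± 0.18 (edgeR adjusted p = 1.45e-05), and GN_captopril minus Control_water 0.60 ± 0.22 (adjusted p = 0.0968).

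The lower genes of that list included Kcnj1, the apical potassium channel (-0.31 ± 0.06), Slc9a2, a sodium-proton exchanger of macula densa cells (-0.34 ± 0.08), Wnk1, a kinase that regulates salt transport (-0.49 ± 0.07), and Egf (-0.58 ± 0.09). In the difference between captopril differences 3 of 18 were higher and 10 lower (median -0.55; 50.7% of all genes called). Pappa2 gave 2.84 ± 0.35, Kcnj1 -1.76 ± 0.12, Avpr1a, a vasopressin receptor, -1.81 ± 0.16, and Umod, the uromodulin gene of the thick ascending limb, -1.57 ± 0.18.

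**Figure D4:**
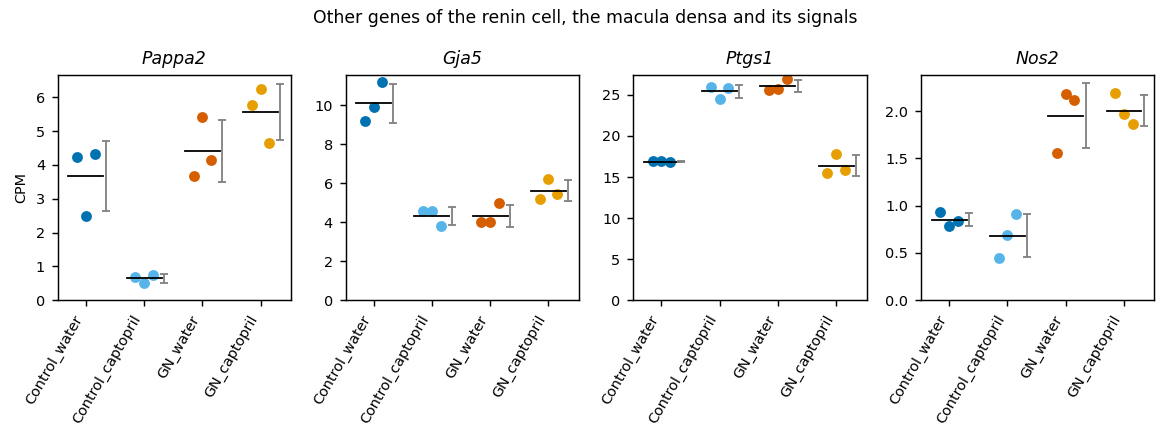
Levels of Pappa2, Gja5, Ptgs1 and Nos2 in the 12 libraries, in CPM on linear axes from 0, with 1 point per library, the group mean as a line and the SD as a bar beside it. Control_captopril is lowest for Pappa2 (0.506 to 0.758 CPM), Control_water is highest for Gja5 (9.21 to 11.2 CPM), and both GN groups exceed both control groups for Nos2.

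Of 21 other genes of prostaglandin synthesis, transport and reception, 9 were higher and 5 lower in the GN average (median 0.07; 30.9% of all genes called). Hpgds, the prostaglandin D synthase of blood cells, was higher (1.61 ± 0.14, edgeR adjusted p = 4.83e-06), as were the phospholipase genes Pla2g4a (0.43 ± 0.07) and Pla2g2d (2.75 ± 0.49). Among receptors Ptger4, for prostaglandin E2 and present on renin cells, was higher (0.98 ± 0.11, adjusted p = 2.58e-05), and Ptgir, for prostacyclin, as well (0.76 ± 0.16), while Ptgfr, for prostaglandin F2 alpha, was lower (-0.66 ± 0.07). Abcc4, which exports prostaglandins, was lower in this average (-0.47 ± 0.08), and Cbr1, a carbonyl reductase that converts prostaglandin E2, also (-0.25 ± 0.04). Both averages join opposite differences. Cbr1 was at 347 CPM in GN_water against 47.7 in Control_water, and at 39 in GN_captopril against 404 in Control_captopril. For Abcc4 these means were 101 against 59.7 CPM and 42.8 against 139 CPM. Hpgds and Ptger4 are also expressed by leukocytes, whose markers were higher in GN. Their part in these differences was not tested.

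The other cyclooxygenase gene and the prostaglandin E synthase genes had smaller GN averages than Ptgs2, a difference that was not tested. Ptgs1, the constitutive cyclooxygenase, had 16.8 to 16.9 CPM in Control_water, 24.5 to 26.0 in Control_captopril, 25.6 to 26.9 in GN_water and 15.5 to 17.8 in GN_captopril. Its groups paired as those of Ptges did, and its GN average was 0.00 ± 0.05 (edgeR adjusted p = 0.998). Ptges2, another prostaglandin E synthase, gave -0.13 ± 0.04 (adjusted p = 0.0311), a call lost with library totals (-0.05) and without Control_water or Control_captopril replicate 2 or 3 or GN_captopril replicate 1 or 2 (adjusted p = 0.0554 to 0.0672), and Ptges3 -0.04 ± 0.04 (adjusted p = 0.494). In the difference between captopril differences 2 of the 21 were higher and 14 lower (median -0.99; 50.7% of all genes called). Ptgs1 gave -1.26 ± 0.09, Hpgd, which inactivates prostaglandins, -2.12 ± 0.15, Abcc4 -2.47 ± 0.16 and Cbr1 -6.24 ± 0.09.

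**Figure D5:**
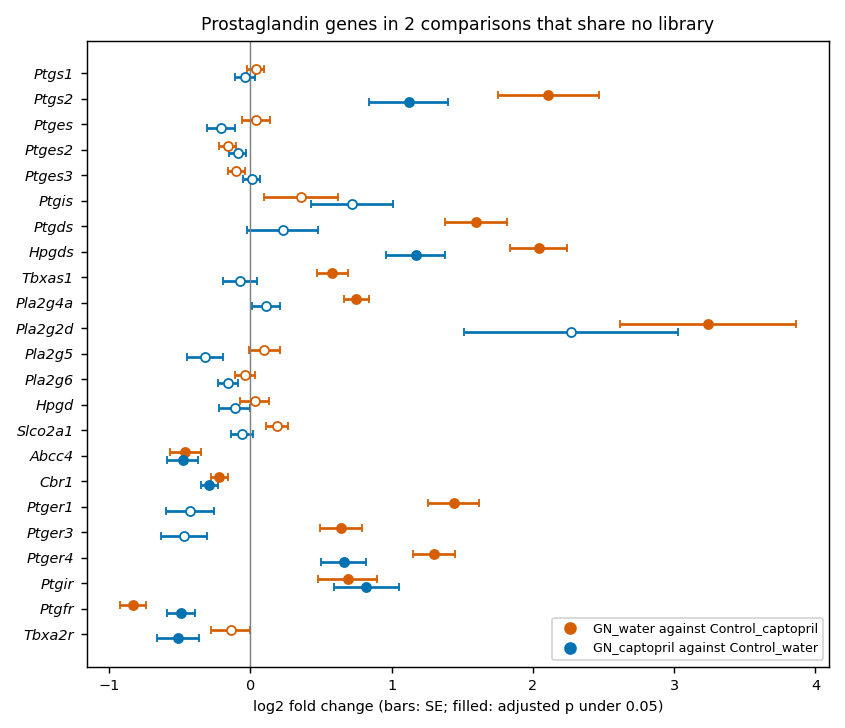
Log2 fold changes of 23 prostaglandin genes, members included, in GN_water against Control_captopril and in GN_captopril against Control_water, which share no library, with the SE as a bar and filled points where the edgeR adjusted p is under 0.05. Ptgs2 is filled to the right in both (2.11 and 1.12), Ptger4 and Hpgds likewise, and Ptges in neither.

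Among nitric oxide and cyclic GMP genes, 5 of 23 besides Nos1 were higher and 2 lower in the GN average (median 0.08; 30.9% of all genes called). Nos2, the inducible synthase of immune cells, stood at 0.852 ± 0.0722 CPM in Control_water and 0.683 ± 0.231 in Control_captopril, and at 1.95 ± 0.344 in GN_water and 2.01 ± 0.166 in GN_captopril (n = 3 each, SD). It went opposite to Nos1, with a GN average of 1.37 ± 0.18 (edgeR adjusted p = 0.000102). Nos3, the endothelial synthase, gave 0.21 ± 0.10 (adjusted p = 0.106). Ddah1, which clears an inhibitor of these synthases, gave -0.20 ± 0.04, the arginine transporter gene Slc7a1 0.29 ± 0.05 and Ass1, which remakes arginine, -0.20 ± 0.05, a call that scaling to library totals removed (-0.13, adjusted p = 0.0696). In the difference between captopril differences 7 were higher and 10 lower (median -0.17; 50.7% of all genes called), from Arg2, a mitochondrial arginase, at -6.24 ± 0.24, to Ass1 at 1.60 ± 0.10.

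Relatives of the members by sequence family went both ways. Of 15 other aldo-keto reductases 2 were higher and 2 lower in the GN average (median -0.14; 30.9% of all genes called). Akr1b8, a close relative of Akr1b7, was higher (0.83 ± 0.14, edgeR adjusted p = 0.000694). In the difference between captopril differences 9 were higher and 4 lower (median 0.82; 50.7% of all genes called), with Akr1c21 at 2.30 ± 0.11, Akr7a5 at 1.25 ± 0.09, Akr1c19 at -2.70 ± 0.13 and Akr1c20 at -5.62 ± 0.41. Of 6 other aspartic proteases, the family of renin, 2 were higher and 2 lower in the GN average (median -0.03), with Bace2 at 0.82 ± 0.12 and Ctse, cathepsin E, at 0.98 ± 0.25. These 6 include Ren2, which C57BL/6 mice lack and whose counts may be split from Ren1 reads, so it is no separate relative here. Its means ranked the groups as Ren1 did: 8.36 CPM in Control_water, 2.69 in GN_captopril, 0.281 in Control_captopril and 0.105 in GN_water. Of 9 partners of renin in the angiotensin system 0 were higher and 3 lower in the GN average (edgeR, median -0.18; 30.9% of all genes called), the peptidase genes Enpep (-0.19 ± 0.06) and Mme (-0.22 ± 0.07) among the lower. The Mme call was lost without Control_water replicate 1 or 2, Control_captopril replicate 1 or 3, or GN_captopril or GN_water replicate 2 (adjusted p = 0.0577 to 0.0842), and with library totals (-0.15, adjusted p = 0.14), as was that of Enpep (-0.12, adjusted p = 0.122). Ace, the target of captopril, gave -0.19 ± 0.07 (adjusted p = 0.0659) and 1.13 ± 0.14 in the difference between captopril differences.

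The genes most like Ren1 over the 12 libraries, by Pearson's r of log2 CPM, were Dao (0.993), Acads (0.990), Ugt1a7c (0.990), Phyh (0.990) and Dhrs4 (0.989), enzymes of peroxisomal, mitochondrial or conjugating metabolism. The measure r takes no account of size. Group means of Dao ran from 283 CPM in GN_water to 466 in Control_water, and those of Ren1 from 24.7 to 1339. All 5 had lower means in both groups with Xist than in both groups with Y-linked transcripts, as Ren1 did. Nearest to Akr1b7 were Lgals4 (0.911), Adra2b (0.881), Hint3 (0.873), Gsg1l (0.869) and Lpin1 (0.863). For Nos1 they were Cog6 (0.888), Tmem139 (0.878), Ppp5c (0.876), Gbe1 (0.874) and Prkce (0.862). Ptgs2 ran closest to Lrrcc1 (0.958), Mtbp (0.953), Zdhhc2 (0.951), Arpc2 (0.946) and Plk2 (0.944), and Ptges to Pygl (0.973), Plce1 (0.966), Scd1 (0.963), Pygb (0.961) and Fam189a2 (0.961). These values describe 4 groups of 3 libraries and the libraries of a group are not independent points, so no p is given. Among the members themselves r was -0.85 between Ren1 and Ptges, 0.65 between Ren1 and Akr1b7, 0.57 between Ren1 and Nos1 and 0.44 between Ren1 and Ptgs2.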

How the data were processed

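RNA was measured by stranded mRNA sequencing of 12 kidney cortex libraries. The authors deposited estimated counts of reads per gene symbol, made from sequencing reads and not scaled for depth. Of the values, 13.6% were not whole, so reads shared between features can be split between genes. They were rounded before testing. Per the submitters' processing notes Bowtie2, Partek and the mm10 build were used; their versions and the annotation: not given in the sources used here. A deposited RPKM table was not used here. Totals were 14.2 to 22.8 M counts per library.

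Genes were kept by filterByExpr (minimum count 10, minimum total 15), which left 14618, and normalised by TMM. The quasi-likelihood fit of edgeR 4.0.16 under R 4.3.3 had 1 mean per group over all 12 libraries, 9 comparisons, with Benjamini-Hochberg adjustment over all genes at 0.05. GN and captopril averages are means of the differences within each label, and the difference between captopril differences is the interaction of GN and captopril. SE came from the estimate and its F statistic. CPM used TMM library sizes, and levels per kilobase used merged GENCODE vM21 exon length. DESeq2 1.42.0, other scalings (RLE, library totals), no filter, a replicate block and leaving out libraries were alternatives. A fit of known changes on simulated data was checked first. Figures used matplotlib 3.10.9.

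The members and lists were chosen with earlier results of these data known, and so were the comparisons of groups with like sex-linked transcripts. Named genes were the members, up to 4 called genes per list by smallest adjusted p in the GN average or the interaction, genes needed for their role, and the 5 nearest to each member by r, without predicted genes. A few genes of these lists are not reported here. Groups came from the labels and no library was moved. Title numbers were not used to pair libraries, as the labels do not state a pairing. Deviations of same-numbered libraries correlated at -0.24 to 0.24, over 0.1 in 4 of 18 pairs. Differently numbered libraries were not compared, so these values do not decide whether a pairing exists. Replicates differed beyond counting error.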

Additional observations from a re-analysis of the deposited data

Results flagged for a closer look

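The captopril difference in GN minus the captopril difference in controls was tested directly and passed for 3 of the 5 genes (edgeR quasi-likelihood, adjusted over all genes, 3 libraries per group). It was 8.61 for Ren1 (adjusted p = 2.40e-10), 3.52 for Ptgs2 (adjusted p = 2.87e-05) and -1.26 for Ptges (adjusted p = 8.12e-06), all on the log2 scale. In this contrast the groups with Y-linked transcripts stand against those with Xist, and the labelled treatment and these markers cannot be told apart.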

How the results depend on the processing

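Of the planned recomputations 744 kept their direction and side of the threshold, and 47 were weaker, 3 stronger and 16 reversed; adding the Ren2 counts to Ren1, chosen after seeing the data, changed none of 9. The calls of Ren1 and Ptges held in every alternative run. Where a cause is not given by the construction of an alternative, the cause was not tested.

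Scaling to library totals alone moved the median of all genes to 0.21 in GN_water against Control_water, -0.20 in GN_captopril against GN_water, 0.13 in Control_captopril against Control_water and -0.33 in the interaction, and the share of calls that were higher from 53.4 to 81.1%, 43.5 to 22.4%, 47.5 to 72% and 46.5 to 23.1%. In the other comparisons that share went from 51.6 to 40.9% (GN_captopril against Control_captopril), 56.2 to 77.8% (GN_water against Control_captopril), 58.4 to 79.1% (GN_captopril against Control_water), 52.7 to 78.2% (GN average) and 48.7 to 38.4% (captopril average). It gave Nos1 -0.55 in GN_water against Control_water, 0.05 in Control_captopril against Control_water, -0.60 in GN_water against Control_captopril and -0.42 in the GN average, Ptgs2 0.06 in GN_water against Control_water, and Akr1b7 -1.78 in the GN average, and the 3 Nos1 calls and this Akr1b7 call were lost. DESeq2 gave Nos1 -0.71 in GN_water against Control_captopril and -0.50 in the GN average, both calls lost.

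A replicate block by title number, a pairing that the labels do not state, gave Akr1b7 -0.07 in Control_captopril against Control_water and 2.93 in the interaction, and Nos1 -0.69 in GN_water against Control_captopril (adjusted p = 0.0501); it changed no other call of the 5 genes. Without both libraries with the most adrenal counts, Akr1b7 was -1.95 in Control_captopril against Control_water, 1.34 in GN_captopril against Control_captopril, -1.11 in GN_water against Control_captopril, -0.86 in the GN average and 4.41 in the interaction. There Nos1 was 0.06 in Control_captopril against Control_water and -0.54 in the GN average, Ptges -0.01 in GN_water against Control_captopril, and Ptgs2 1.08 in GN_captopril against Control_water. The calls of Akr1b7 in GN_water against Control_captopril and the GN average, of Nos1 in the GN average and of Ptgs2 were lost there.

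Leaving out 1 library at a time gave these lowest and highest values where a call or direction changed. In GN_water against Control_water they were -3.32 to -2.55 for Akr1b7, -0.91 to -0.63 for Nos1. For GN_captopril against GN_water they were 2.46 to 3.23 for Akr1b7. In Control_captopril against Control_water they were -1.96 to 0.99 for Akr1b7, -0.22 to 0.06 for Nos1. For GN_captopril against Control_captopril they were -1.17 to 1.78 for Akr1b7. In GN_water against Control_captopril they were -4.06 to -1.11 for Akr1b7, -0.81 to -0.54 for Nos1, -0.05 to 0.07 for Ptges. For GN_captopril against Control_water they were -0.61 to 0.34 for Akr1b7, 0.95 to 1.25 for Ptgs2. In GN averaged over both treatments they were -2.12 to -0.65 for Akr1b7, -0.58 to -0.42 for Nos1. For interaction of GN and captopril they were 1.90 to 4.85 for Akr1b7. Counts of called genes fell from 1765 to 968 to 975 in GN_captopril against Control_water without GN_captopril replicate 3 or Control_water replicate 2, to 936 without both adrenal-rich libraries, and from 952 in the captopril average to 523 without Control_water replicate 2 and 571 to 627 without Control_water replicate 3, Control_captopril replicate 1 or 3, GN_water replicate 3 or GN_captopril replicate 1, and rose there to 1471 without Control_water replicate 1. Low counts limit Ptgs2 (3 to 61 per library) and Nos1.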
